A study of Homo sapiens with 6 samples.

Results

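The transcripts of the nuclear pore complex and of the receptors that carry cargo through it were followed in the human cell line MM1S, an established line that comes from multiple myeloma, which is a plasma cell cancer. Genes were taken by name: every symbol that starts with NUP and a digit, or with KPNA, KPNB, IPO, XPO, TNPO or RANBP, together with RAN, RANGAP1, RCC1, CSE1L, TPR, POM121, NDC1, AAAS, SEH1L, SEC13 and NXT1. Probe sets annotated to several symbols were not used, and the mRNA export receptor NXF1 is not analysed here. The names gave 70 genes of the 19775 measured on the arrays, read by 190 probe sets. Of the 70, 65 encode proteins and 5 are pseudogenes or non-coding RNAs that share a prefix (NUP50-DT, NUP133-DT, IPO9-AS1, IPO5P1 and NUP210P1). The arrays held RNA of MM1S cells exposed to hypoxia for 24 h (n = 3) and of MM1S cells labelled normoxia (n = 3). The sources used here do not give the oxygen level, and no genetic change or drug is named for either condition. The labels do not say that the 3 arrays of a condition came from separate cultures, so p-values measure only how far these arrays spread, and that spread may be technical.

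Nuclear pores are the channels of the nuclear envelope. They are built of nucleoporins: a Y-shaped complex forms the outer rings, an inner ring lines the membrane, proteins rich in phenylalanine and glycine fill the channel, and filaments and a basket project to the cytoplasm and the nucleus. Importins bring proteins in and exportins take proteins and RNA out, and the GTPase Ran gives the direction, since it is loaded with GTP on chromatin and hydrolyses it in the cytoplasm. The exportin XPO1 is the target of selinexor, a drug used against myeloma.

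Each gene is given below by the intensity of its brightest probe set, on the linear scale of the deposited table. A value with ± is a mean with its SD over the 3 arrays of a condition. Changes are hypoxia minus normoxia in units of log2(intensity + 16), which understates the changes of dim genes. A gene passed when its adjusted p was at most 0.05 in limma, fitted over all 19775 genes with Benjamini-Hochberg adjustment. The array medians were 54.95 to 60.13, and near or below them a signal cannot be told from background. Arrays correlated across genes at 0.991 to 0.995 within a condition and 0.969 to 0.974 between conditions (Pearson, log2 scale), and all 7 measured HIF targets used to check the labels rose (median log2 change 2.23). All 8 plasma cell markers lay above the median of every array, with a summed intensity of 41274 to 43026 in hypoxia and 42834 to 44440 in normoxia. Among them CD38 (log2 change -0.71), SLAMF7 (-0.34), SDC1 (-0.30) and MZB1 (-0.26) fell and XBP1 (0.22) rose. IRF4, PRDM1 and TNFRSF17 did not pass. Of 17 markers of T cells, monocytes, stroma, epithelium and red cells, 14 did not pass. CD3D (132 in hypoxia and 98.3 in normoxia) and EPCAM (67.3 in hypoxia and 24.8 in normoxia) rose, and HBB (1126 in hypoxia and 1751 in normoxia) fell, and their part in the results below was not tested. In total RNA of a culture, fewer cells that express a gene and less of its RNA per cell cannot be told apart.

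Most of the pore and transport genes were lower in hypoxia. Of the 70 genes, 40 fell (57.1%), 6 rose (8.57%) and 24 did not pass. Over all 19775 genes, 20.6% fell and 16.9% rose. The median log2 change of the 70 genes was -0.42, against -0.00016 over all genes. The changes ran from -2.23 for SEH1L to 0.71 for RANBP9, and 10 genes fell at least 2-fold. The 3 hypoxia arrays all lay below the 3 normoxia arrays for 43 of the 70 genes and all above them for 9, against 25.8% and 22.1% of all genes. Because dim genes rarely pass, the same counts were made at 2 levels of brightness in the same fit. Among the 62 pore and transport genes with a mean intensity of at least 100, 40 fell and 5 rose, where 34.5% of all such genes fell and 26.7% rose. Among the 38 with a mean of at least 1000, 25 fell and 3 rose, where 36.4% of all such genes fell and 28.4% rose.

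**Figure D1:**
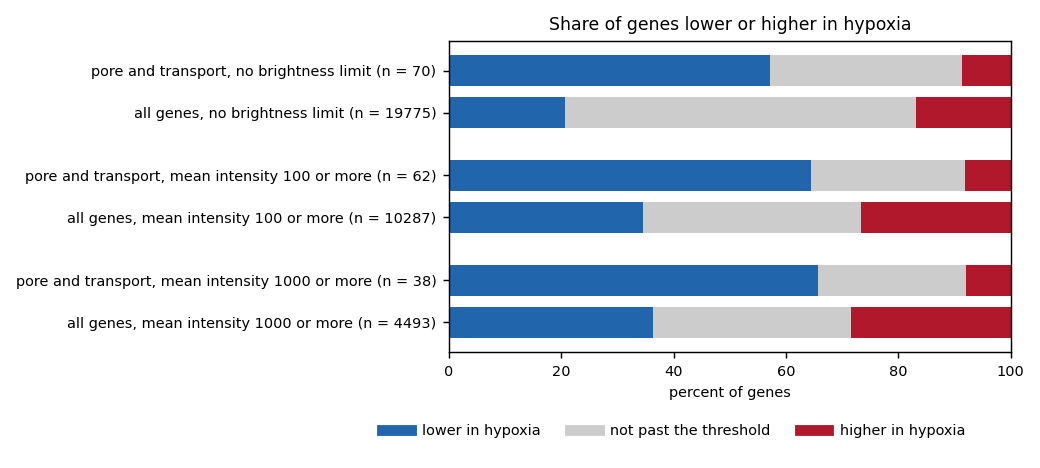
Percent of genes lower in hypoxia, not past the threshold, and higher in hypoxia, for the pore and transport genes and for all genes, without a limit on brightness and with a mean intensity of at least 100 or 1000. The share that fell was 57.1% of the 70 pore and transport genes and 20.6% of all 19775 genes.

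By structure, the pore proteins numbered 30, of which 21 fell, 3 rose and 6 did not pass, with a median log2 change of -0.70. The importin and exportin receptors numbered 26, of which 12 fell, 1 rose and 13 did not pass, with a median of -0.21. Of 6 genes of the Ran cycle, 4 fell, 1 rose and 1 did not pass. The receptors that fell were 46.2% of the 26, whose median intensity was 1490 in hypoxia and 1802 in normoxia. For comparison, 20.6% of all genes and 36.4% of those with a mean intensity of at least 1000 fell, and 16.9% and 28.4% rose. Whether the shares that fell or rose differ between the groups was not tested.

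**Figure D2:**
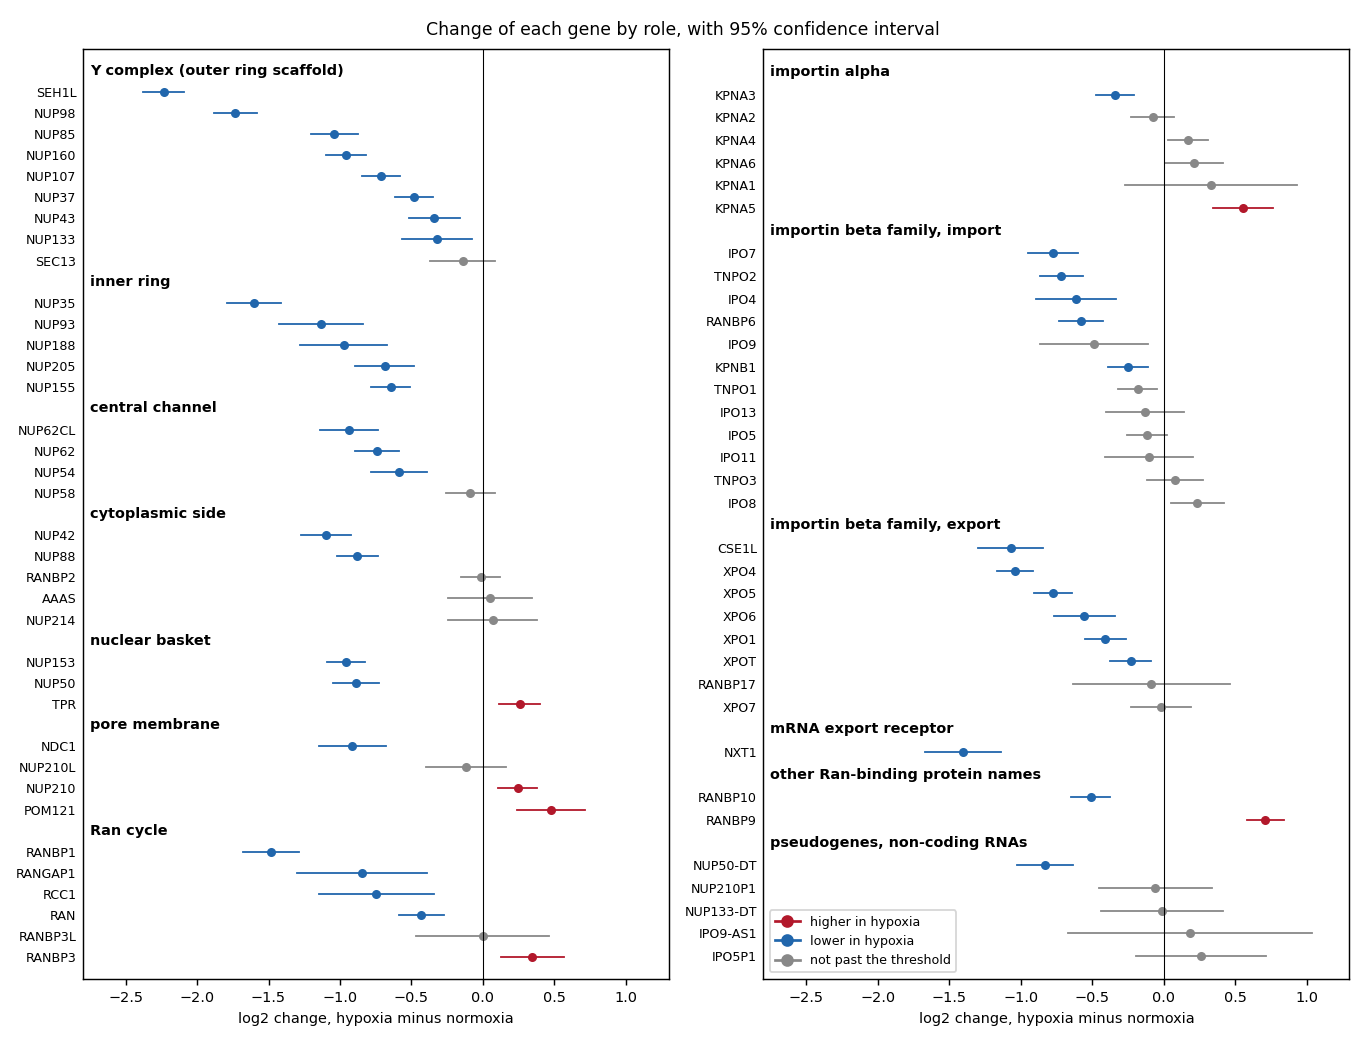
Log2 change (hypoxia minus normoxia, taken as log2(intensity + 16)) of each of the 70 genes, grouped by role, with the 95% confidence interval of limma as a line. The 5 inner ring genes lie between -1.60 and -0.65, while the 6 importin alpha genes lie between -0.34 and 0.56.

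The Y complex, the scaffold of the outer rings, was lower in nearly all of its parts. Of 9 genes, 8 fell and 1 did not pass, with a median log2 change of -0.71. The share that fell was 88.9%, against 20.6% of all genes and 34.5% of those with a mean intensity of at least 100. SEH1L, a Y complex subunit that is also part of GATOR2, a complex that acts on amino acid signalling to mTORC1, had 734, 723 and 693 in hypoxia, against 3544, 3412 and 3324 in normoxia. Every hypoxia array was thus far below every normoxia array, a 4.7-fold fall (log2 change -2.23 with 95% limits of -2.37 and -2.09, limma adjusted p = 2.07e-05). The second probe set of SEH1L also fell but by less, at 648 ± 8.20 in hypoxia and 970.5 ± 48.9 in normoxia (log2 change -0.57, limma adjusted p across probe sets = 0.00122). NUP98, whose main transcript encodes a precursor that is split into NUP98 and the Y complex subunit NUP96, had 706, 723 and 660.4 in hypoxia, against 2408, 2344 and 2297 in normoxia (log2 change -1.73 with 95% limits of -1.88 and -1.58, limma adjusted p = 3.02e-05). The fall of NUP98 rests on 1 of its 3 probe sets. One of the others was at 1095 ± 100.2 in hypoxia and 1228 ± 155 in normoxia. The last was at 452 ± 14.00 in hypoxia and 464 ± 59.4 in normoxia, and neither passed. NUP85, which sits in a short arm of the Y, had 621, 673 and 598 in hypoxia, against 1274, 1345 and 1322 in normoxia, groups that do not overlap (log2 change -1.04 with 95% limits of -1.21 and -0.88, limma adjusted p = 0.000121). Smaller falls were those of NUP160 (-0.96, with all 3 probe sets lower), NUP107 (-0.71), NUP37 (-0.48), NUP43 (-0.34) and NUP133 (-0.32, limma adjusted p = 0.0486). The call of NUP133 was lost in 10 of 16 alternatives, each array left out in turn among them (adjusted p 0.0127 to 0.519 over the alternatives). SEC13, which also serves in the COPII coat of secretory vesicles, did not pass, at 2750.1 ± 242 in hypoxia and 3033 ± 201 in normoxia (limma adjusted p = 0.3).

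All 5 genes of the inner ring fell, with a median log2 change of -0.97. For comparison, 20.6% of all genes fell, and 34.5% of those with a mean intensity of at least 100. NUP35, a ring protein that binds NUP93 and NUP155, had 496, 555 and 587 in hypoxia, against 1679, 1715 and 1662 in normoxia (log2 change -1.60 with 95% limits of -1.79 and -1.41, limma adjusted p = 5.61e-05). For NUP93, which links the inner ring to the proteins of the channel, the arrays read 464, 607 and 577 in hypoxia, against 1120.4, 1228 and 1303 in normoxia (log2 change -1.13 with 95% limits of -1.43 and -0.84, limma adjusted p = 0.000713). In both genes the lowest normoxia array was far above the highest hypoxia array. NUP188, a large ring scaffold, was dimmer and more scattered, at 114, 153 and 129.6 in hypoxia, against 293, 244 and 285 in normoxia (log2 change -0.97 with 95% limits of -1.28 and -0.67, limma adjusted p = 0.0015). Its relative NUP205 was at 1979 ± 152 in hypoxia and 3197 ± 196 in normoxia (log2 change -0.69), and the membrane-binding ring protein gene NUP155 at 553 ± 9.90 in hypoxia and 873 ± 30.2 in normoxia (log2 change -0.65). The second probe set of NUP205 fell too (-0.91), while the dimmer probe sets of NUP93 and NUP188 did not pass.

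In the central channel, whose disordered proteins form the barrier to diffusion, 3 of 4 genes fell. Among all genes 20.6% fell, and among those with a mean intensity of at least 100 the share was 34.5%. NUP62 was at 1256 ± 58.6 in hypoxia and 2110.5 ± 60.01 in normoxia (log2 change -0.74), NUP54 at 1818 ± 147 in hypoxia and 2736 ± 97.3 in normoxia (log2 change -0.59) and the NUP62-related gene NUP62CL at 252 ± 23.96 in hypoxia and 497 ± 18.2 in normoxia (log2 change -0.94). All 3 probe sets of NUP62 fell. Averaged over its 3 probe sets NUP54 was at -0.14 and no longer passed (limma adjusted p = 0.517). Both dimmer NUP54 probe sets were read near background. One was at 34.6 in hypoxia and 26.5 in normoxia (log2 change 0.44) and did not pass. The last fell, at 13.6 in hypoxia and 19.9 in normoxia (log2 change -0.28, limma adjusted p across probe sets = 0.0206). NUP58, their partner in the channel, did not pass on its brightest probe set, at 1219.8 ± 64.05 in hypoxia and 1297 ± 61.2 in normoxia (limma adjusted p = 0.399). Another probe set of NUP58 more than doubled, at 1669 ± 23.2 in hypoxia and 760.3 ± 14.6 in normoxia (log2 change 1.12, limma adjusted p across probe sets = 8.29e-05), so the array gives no single answer for this gene.

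On the cytoplasmic side 2 of 5 genes fell. This share of 40% is near the 34.5% of all genes with a mean intensity of at least 100 that fell (20.6% of all genes). NUP42, a partner of the mRNA export factor GLE1, had 563, 623 and 562 in hypoxia, against 1227, 1338 and 1231 in normoxia (log2 change -1.10 with 95% limits of -1.27 and -0.92, limma adjusted p = 0.000127). NUP88 was at 1002 ± 41.9 in hypoxia and 1855 ± 38.5 in normoxia (log2 change -0.88), while its dim second probe set rose at levels below every array median (0.32). The partner of NUP88 in the filaments, NUP214, was at 515 ± 84.3 in hypoxia and 487 ± 36.04 in normoxia and did not pass (limma adjusted p = 0.742). One of its dimmer probe sets fell, at 69.96 ± 14.00 in hypoxia and 308 ± 17.6 in normoxia (log2 change -1.93). RANBP2, the giant filament protein that binds Ran and RANGAP1, did not pass on its brightest probe set, at 3198 ± 106 in hypoxia and 3235 ± 37.6 in normoxia (95% confidence interval of the log2 change -0.15 to 0.12). In contrast, 2 other RANBP2 probe sets fell (-1.34 and -0.89). RANBP2 has near-identical copies in the RGPD genes, so its reading is uncertain. AAAS, the gene mutated in triple A syndrome, did not pass (0.05).

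The nuclear basket was split. NUP153, which anchors the basket, had 1468, 1451 and 1427 in hypoxia, against 2761, 2814 and 2926 in normoxia (log2 change -0.96 with 95% limits of -1.09 and -0.83, limma adjusted p = 8.45e-05). The other 2 NUP153 probe sets did not pass (-0.09 and 0.02), and the mean of all 3 was -0.34 (limma adjusted p = 0.00436). NUP50, which helps to release importin cargo, fell on its brightest probe set, at 2089 ± 83.5 in hypoxia and 3880.5 ± 178 in normoxia (log2 change -0.89, limma adjusted p = 0.000185). A second NUP50 probe set fell (-0.97), and 2 others rose: one was at 2091 ± 81.8 in hypoxia and 972 ± 52.04 in normoxia (log2 change 1.09) and the other changed by 0.54. Averaged over its 6 probe sets NUP50 was at 0.061 and did not pass (limma adjusted p = 0.622). TPR, whose coiled-coil protein makes up the basket filaments, had 3437, 3666 and 3618 in hypoxia, against 2993, 2893 and 3067 in normoxia, so that the groups do not overlap (log2 change 0.26 with 95% limits of 0.12 and 0.40, limma adjusted p = 0.0157). One TPR probe set fell instead, at 272 ± 29.6 in hypoxia and 574 ± 47.3 in normoxia (log2 change -1.04), and the mean of all 5 was -0.14 and did not pass. The call of TPR was lost in 4 of 16 alternatives (adjusted p 0.000749 to 0.308 over the alternatives).

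Of the 4 pore membrane genes, 2 rose, 1 fell and 1 did not pass, where 16.9% of all genes rose and 20.6% fell. NUP210, a glycoprotein of the pore membrane, had 6714, 6328 and 6528 in hypoxia, against 5678, 5401 and 5456 in normoxia (log2 change 0.24 with 95% limits of 0.10 and 0.38, limma adjusted p = 0.0179). Of its 4 dimmer probe sets, 3 rose, with log2 changes of 0.59, 0.67 and 1.21. Without hypoxia replicate 2, normoxia replicate 1 or normoxia replicate 2 the call on the brightest probe set was lost (adjusted p 0.000497 to 0.0642 over the alternatives). POM121, a membrane anchor of the pore, was read near background, with 63.9, 70.1 and 56.4 in hypoxia, against 36.3, 40.9 and 45.8 in normoxia (log2 change 0.48 with 95% limits of 0.24 and 0.72, limma adjusted p = 0.0103). The 3 normoxia values lay below every array median, the change was 0.28 with a pseudocount of 64, and the call was lost without both arrays numbered 0 (adjusted p 0.00908 to 0.0738 over the alternatives). NDC1, another membrane anchor, was at 2338 ± 223 in hypoxia and 4412 ± 284 in normoxia on its brightest probe set (log2 change -0.91, limma adjusted p = 0.000666), but its second probe set rose, at 2604 ± 103 in hypoxia and 2067 ± 62.3 in normoxia (log2 change 0.33).

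**Figure D3:**
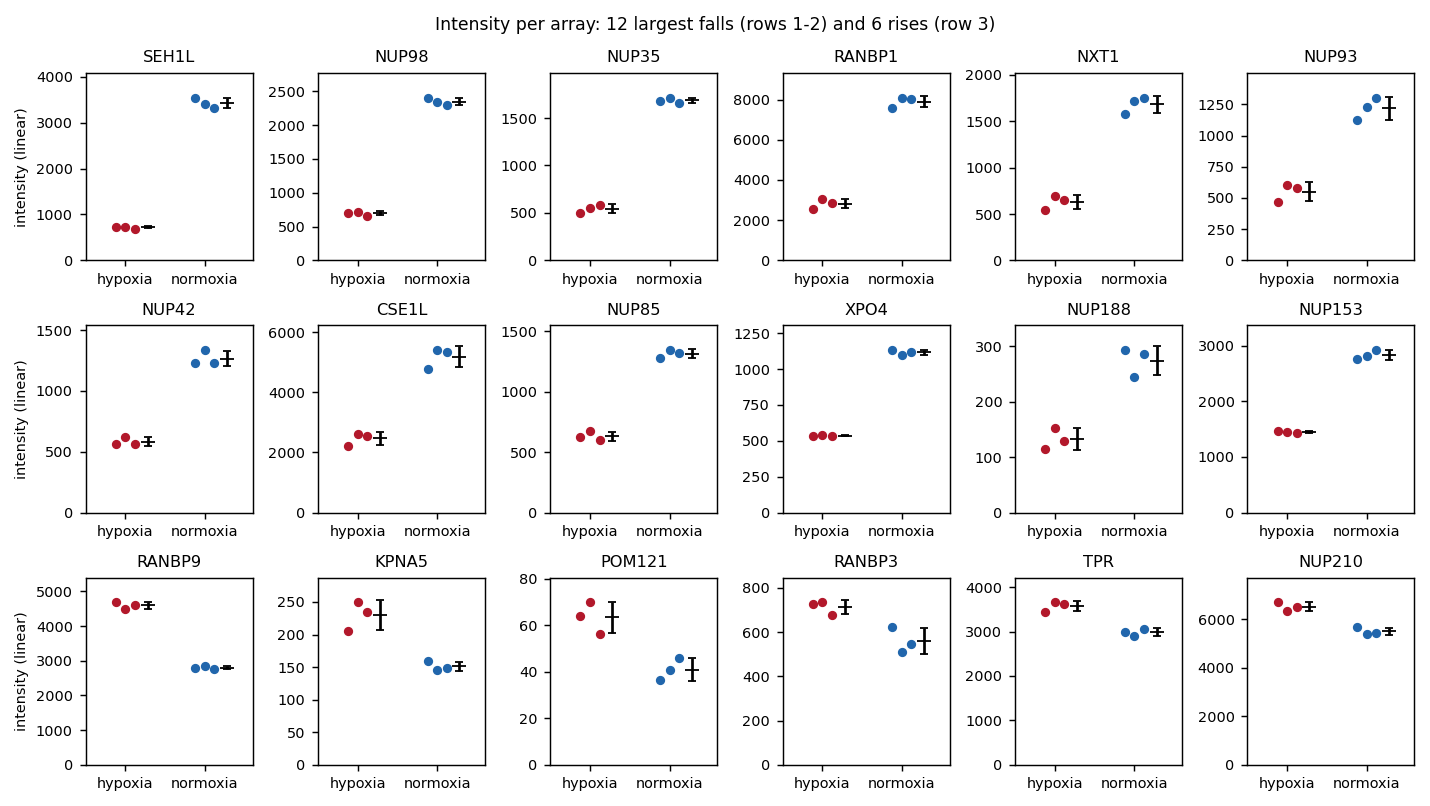
Linear intensity on each of the 3 hypoxia and 3 normoxia arrays for the 12 genes with the largest falls (first and second row) and the 6 that rose (bottom row), with the mean and SD as a black mark. Each vertical axis starts at 0. Only genes past the threshold whose groups do not overlap were picked, so the 2 groups are separate in every panel by choice.

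The enzymes and cofactors of the Ran cycle were mostly lower. RANBP1, a cofactor of GTP hydrolysis by Ran, had 2572, 3038 and 2851 in hypoxia, against 7601, 8099 and 8012 in normoxia, a 2.8-fold fall (log2 change -1.48 with 95% limits of -1.68 and -1.29, limma adjusted p = 7.27e-05). RAN itself had 7359, 7986 and 7745 in hypoxia, against 9920.3, 10755 and 10470.0 in normoxia (log2 change -0.43 with 95% limits of -0.59 and -0.27, limma adjusted p = 0.00287). The second RAN probe set fell much further, at 938 ± 123 in hypoxia and 3070.2 ± 269 in normoxia (log2 change -1.70, limma adjusted p across probe sets = 0.000196). The direction of RAN was therefore the same on both probe sets and its size was not. RCC1, the exchange factor that loads Ran with GTP on chromatin, had 509, 730.2 and 680.4 in hypoxia, against 923, 1144 and 1169 in normoxia (log2 change -0.75 with 95% limits of -1.15 and -0.34, limma adjusted p = 0.0141). RANGAP1, which switches on GTP hydrolysis by Ran, had 161, 266 and 235 in hypoxia, against 372, 395 and 443 in normoxia (log2 change -0.85 with 95% limits of -1.30 and -0.39, limma adjusted p = 0.0136). In both genes hypoxia replicate 0 was the lowest array, and the groups did not overlap. The call of RCC1 was lost without normoxia replicate 1 or 2 (adjusted p 0.00251 to 0.054 over the alternatives), and that of RANGAP1 without normoxia replicate 2 (adjusted p 0.000171 to 0.0501 over the alternatives). RANBP3, a cofactor of XPO1, had 729, 736 and 677 in hypoxia, against 623, 511 and 545 in normoxia (log2 change 0.35 with 95% limits of 0.13 and 0.57, limma adjusted p = 0.0264), while 2 dimmer RANBP3 probe sets fell (-0.68 and -0.46). Its call was lost in 5 of 16 alternatives (adjusted p 0.00383 to 0.118 over the alternatives). RANBP3L lay at background in both conditions.

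Importin alpha proteins are the adapters that bind classical nuclear localisation signals. Of 6 genes, 1 rose, 1 fell and 4 did not pass, with a median log2 change of 0.19. The shares that rose and fell, 16.7% each, are near those of all genes (16.9% rose and 20.6% fell). KPNA5 had 206, 249.9 and 234 in hypoxia, against 159, 146 and 148 in normoxia (log2 change 0.56 with 95% limits of 0.34 and 0.77, limma adjusted p = 0.00346), and a second probe set rose as much (0.57). KPNA3 was at 2075 ± 43.1 in hypoxia and 2629 ± 70.1 in normoxia (log2 change -0.34), with its second probe set at -0.32. These 2 genes moved in opposite directions, each on 2 probe sets. KPNA2, an importin alpha that is abundant in dividing cells, had 6410.3, 6483 and 6726 in hypoxia, against 6939, 6564 and 7179.9 in normoxia, groups that overlap (log2 change -0.08 with 95% limits of -0.23 and 0.07, limma adjusted p = 0.412). KPNA4 (0.17) and KPNA6 (0.21) did not pass, although their hypoxia arrays lay above all normoxia arrays, and both passed in some alternatives (4 and 3 of 16). One dimmer KPNA6 probe set fell instead, at 107 ± 18.1 in hypoxia and 148 ± 7.71 in normoxia (log2 change -0.43, limma adjusted p across probe sets = 0.0381). KPNA1 scattered within both groups, with the array numbered 0 highest in each, at 1007, 629 and 652 in hypoxia, against 776, 511 and 513 in normoxia (limma adjusted p = 0.367), and 3 of its 5 dimmer probe sets fell. On this brightest probe set KPNA1 passed as a rise with the replicate number as a block and without both arrays numbered 0. With the mean of its 6 probe sets KPNA1 was at -0.31 (limma adjusted p = 0.0253), so that its direction depends on the probe set.

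Among the 12 import receptors of the importin beta family, 5 fell and 7 did not pass. The share that fell was 41.7%, against 20.6% of all genes and 36.4% of those with a mean intensity of at least 1000. KPNB1, the receptor that carries importin alpha with its cargo, had 5699.9, 5965 and 6103 in hypoxia, against 6957, 6985 and 7162 in normoxia (log2 change -0.25 with 95% limits of -0.39 and -0.11, limma adjusted p = 0.0158). Of its 5 dimmer probe sets 4 fell, with log2 changes down to -0.77. Its call on the brightest probe set was lost without normoxia replicate 2 and without both arrays numbered 0 (adjusted p 0.000371 to 0.0608 over the alternatives). IPO7, which brings in ribosomal proteins among other cargo, was at 2365 ± 161 in hypoxia and 4058 ± 111 in normoxia (log2 change -0.78), and all 4 of its probe sets fell, one of them with a log2 change of -1.87. The TNPO1-related gene TNPO2 (-0.72), IPO4 (-0.61) and the IPO5-related gene RANBP6 (-0.58) also fell. IPO9, a carrier of histones, was at 805 ± 123 in hypoxia and 1136 ± 185 in normoxia and lay just outside the threshold (limma adjusted p = 0.0537), as did TNPO1 (-0.18, limma adjusted p = 0.0501), the receptor of many RNA-binding proteins, and IPO8 (0.24, limma adjusted p = 0.0549). IPO9 passed in 7 of 16 alternatives, TNPO1 in 4 and IPO8 in 8. Of the dimmer TNPO1 probe sets, 3 fell (-0.36, -0.77 and -0.87) and 6 did not pass. Of the dimmer IPO9 probe sets, 1 fell (-0.37) and 2 did not pass. IPO5 (-0.12), IPO13 (-0.13) and TNPO3 (0.08), the receptor of SR splicing factors, did not pass, and IPO11 was read at background level. One of the 4 dimmer IPO5 probe sets fell, at 1722 ± 94.8 in hypoxia and 2739 ± 49.99 in normoxia (log2 change -0.67, limma adjusted p across probe sets = 0.000754). IPO5 passed with an intensity trend, and when averaged over its 5 probe sets, at -0.19 (limma adjusted p = 0.0372).

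Of 8 exportin genes, 6 fell and 2 did not pass, with a median log2 change of -0.48. Those that fell were 75% of the 8, against 20.6% of all genes and 34.5% of those with a mean intensity of at least 100. CSE1L, which returns importin alpha to the cytoplasm, had 2216, 2626 and 2559.6 in hypoxia, against 4789.9, 5415 and 5358 in normoxia (log2 change -1.07 with 95% limits of -1.30 and -0.84, limma adjusted p = 0.000339). All 4 CSE1L probe sets fell, with log2 changes from -1.33 to -0.76, so the fall was seen on each of them. The probe set at -0.76 was read near background, at 36.9 in hypoxia and 71.8 in normoxia. XPO4, an exportin of the translation factor eIF5A, had 534, 538 and 535 in hypoxia, against 1134, 1098 and 1117 in normoxia (log2 change -1.04 with 95% limits of -1.16 and -0.91, limma adjusted p = 5.87e-05), and its dimmer probe set did not pass. XPO1, the exportin of leucine-rich export signals, had 4809.8, 4716 and 4696 in hypoxia, against 6622, 6163 and 6117 in normoxia (log2 change -0.41 with 95% limits of -0.55 and -0.26, limma adjusted p = 0.00255). The fall of XPO1 rests on 1 of its 3 probe sets. One of the other XPO1 probe sets was at 532 ± 18.8 in hypoxia and 480 ± 20.7 in normoxia (log2 change 0.14). The last was near background, at 55.2 ± 7.30 in hypoxia and 52.6 ± 10.1 in normoxia (log2 change 0.06). Neither passed, and with the mean of all 3 the call was lost (-0.07, limma adjusted p = 0.446). XPO5, which exports precursors of microRNAs, was at 574 ± 13.8 in hypoxia and 992 ± 18.4 in normoxia (log2 change -0.77), and XPO6, an exportin of actin, at 710.1 ± 58.1 in hypoxia and 1049 ± 76.2 in normoxia (log2 change -0.55). XPOT, the exportin of transfer RNA, was at 6610.2 ± 241 in hypoxia and 7759.7 ± 201 in normoxia on its brightest probe set (log2 change -0.23, limma adjusted p = 0.0237) and at 635 ± 22.5 in hypoxia and 3129 ± 53.9 in normoxia on the other (log2 change -2.27, limma adjusted p across probe sets = 4.02e-05). The smaller of these calls was lost in 7 of 16 alternatives (adjusted p 4.19e-05 to 0.0832 over the alternatives). XPO7 (-0.02) and its relative RANBP17 (-0.09) did not pass.

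NXT1, the cofactor of the mRNA export receptor NXF1, had 541, 694 and 649.8 in hypoxia, against 1577, 1715 and 1755 in normoxia, a 2.65-fold fall on its single probe set (log2 change -1.40 with 95% limits of -1.67 and -1.14, limma adjusted p = 0.000219). The largest rise was that of RANBP9, which carries a Ran-binding name but is a scaffold of the CTLH ubiquitin ligase. RANBP9 had 4694, 4485 and 4612 in hypoxia, against 2802, 2841 and 2762 in normoxia, 1.64-fold higher (log2 change 0.71 with 95% limits of 0.58 and 0.84, limma adjusted p = 0.000196). All 4 of its probe sets rose, with log2 changes of 0.67 to 0.98. The 0.98 was that of the dimmest probe set, read near background at 66.3 in hypoxia and 25.8 in normoxia. The RANBP9 paralogue RANBP10 fell, at 128 ± 2.60 in hypoxia and 189 ± 6.95 in normoxia (log2 change -0.51, limma adjusted p = 0.000842), so the 2 paralogues were on opposite sides. Of the 5 pseudogenes and non-coding RNAs, NUP50-DT, a transcript that starts next to NUP50 on the other strand, fell, at 97.6 ± 4.33 in hypoxia and 186 ± 16.8 in normoxia (log2 change -0.83, limma adjusted p = 0.000487), and the other 4 did not pass. IPO5P1 is a copy of IPO5, so their probe sets may take up each other's RNA.

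The choice of probe set mattered for many of these genes. Several probe sets read 51 of the 70 genes. Of these, 36 passed on the brightest one, and in 24 of the 36 another probe set passed the same way. In 8 no other passed, and in 5 (NDC1, NUP50, NUP88, TPR and RANBP3) another passed the opposite way, NUP50 having both kinds. A further 9 genes did not pass on the brightest probe set while a dimmer one did. With the mean of all probe sets in place of the brightest, the change shrank over 1.5 times and still passed for SEH1L (-1.40), NUP98 (-0.64), RANBP1 (-0.87), NUP93 (-0.47), XPO4 (-0.60), NUP188 (-0.34), NUP153 (-0.34), NDC1 (-0.29), NUP88 (-0.28), RANBP10 (-0.24) and KPNA5 (0.37). By the same measure it grew for NUP37 (-0.78), RAN (-1.06), KPNB1 (-0.48), XPOT (-1.25) and NUP210 (0.67). Over all 190 probe sets, tested with adjustment over the 41091 probe sets of 1 symbol, 88 fell and 18 rose, where 18.0% of those 41091 fell and 15.8% rose. Probe sets of a gene share its RNA and are no replicates.

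**Figure D4:**
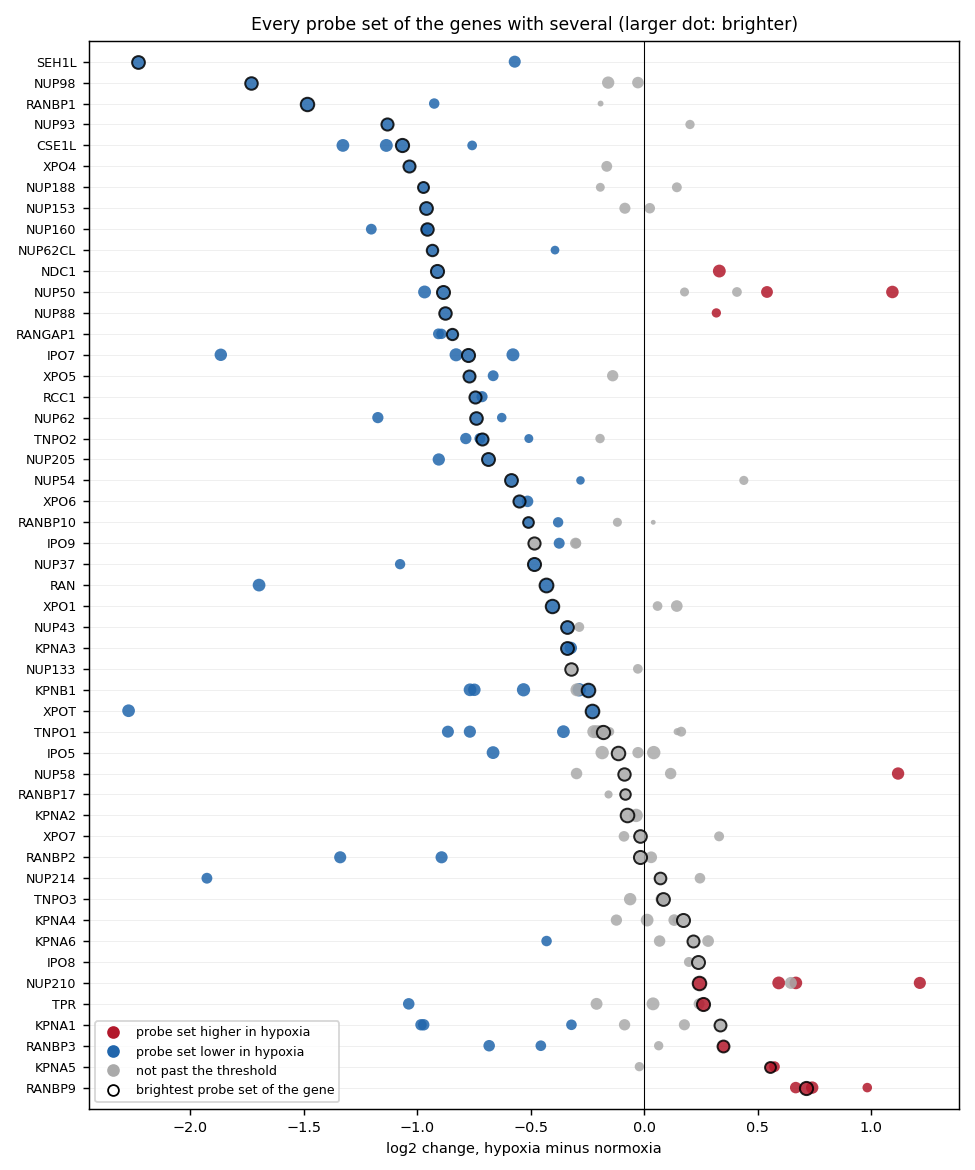
Log2 change (hypoxia minus normoxia) of every probe set of the protein genes with several, 1 gene per line, with the brightest probe set circled and larger dots for brighter probe sets. Colours follow the adjustment over all 41091 probe sets, in which NUP133 does not pass. CSE1L and RANBP9 have all probe sets on one side of 0, while NUP50 and NDC1 have probe sets that fell and probe sets that rose.

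Promoter windows, from 250 bases before to 50 bases after the annotated start, were at hand for 62 of the 70 genes (RefSeq, GRCh38.p14). They were searched on both strands for 3 short motifs: CACGTG, the E-box that MYC and other factors bind; ACGTG, the core of the HIF site, which lies inside every CACGTG; and CCGGAAG, a core bound by ETS factors. The E-box stood in 8 of the 62 windows (12.9%), against 7.43% of all 27305 windows. All 8 belonged to genes that fell (8 of 37), and no such match was in the 5 windows of genes that rose or the 20 of genes that did not pass. The HIF core was in 18 of 62 windows (29.0%), against 21.6% of all, in 13 of the 37 windows of genes that fell, in 5 of the 20 of genes that did not pass and in none of the 5 of genes that rose. The ETS core was in 19 of 62 (30.6%), against 10.7% of all, in 14 of the 37, in 4 of the 20 and in 1 of the 5. The windows of NUP50 and NUP50-DT overlap, and both are among the 37. Their shared E-box, with the HIF core inside it, and their shared ETS core are therefore counted once for each gene. NUP50 is counted as a fall by its brightest probe set, although the mean of its probe sets did not pass. The shares among all genes that fell, rose or did not pass were not counted. The split by direction therefore has no background to be read against, and the groups that rose or did not pass hold few windows. These shares are given as a description without a test, and a match is not a bound site. The windows of all genes were not limited to genes on the arrays or to genes that encode proteins. The 250 bases before the start are shown for SEH1L, the largest fall, with 1 ETS core, for NUP188, which has 2 E-boxes, for RAN and NUP50, which have 1 E-box each, and for RANBP9, the largest rise, which has none of the 3 motifs in this stretch. Each is written from 5′ to 3′ on the strand of its gene, with E-boxes and ETS cores in capitals.
SEH1L (chr18:12947761-12948010, plus strand): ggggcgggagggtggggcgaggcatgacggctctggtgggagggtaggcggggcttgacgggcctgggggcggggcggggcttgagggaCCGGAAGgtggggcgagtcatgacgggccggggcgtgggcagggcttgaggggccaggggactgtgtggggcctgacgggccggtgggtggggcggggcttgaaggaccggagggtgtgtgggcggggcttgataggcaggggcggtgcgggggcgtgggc
NUP188 (chr9:128947449-128947698, plus strand): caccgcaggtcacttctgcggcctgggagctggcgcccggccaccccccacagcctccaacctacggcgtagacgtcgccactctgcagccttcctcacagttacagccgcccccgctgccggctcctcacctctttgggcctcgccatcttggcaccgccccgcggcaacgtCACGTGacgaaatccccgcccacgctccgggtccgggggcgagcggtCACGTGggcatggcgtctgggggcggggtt
NUP50 (chr22:45163675-45163924, plus strand): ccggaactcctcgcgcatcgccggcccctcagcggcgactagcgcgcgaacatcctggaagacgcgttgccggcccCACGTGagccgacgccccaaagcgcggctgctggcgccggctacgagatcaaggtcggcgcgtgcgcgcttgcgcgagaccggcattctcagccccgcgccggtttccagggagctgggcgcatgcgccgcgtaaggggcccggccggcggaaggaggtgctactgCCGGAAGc
RAN (chr12:130871816-130872065, plus strand): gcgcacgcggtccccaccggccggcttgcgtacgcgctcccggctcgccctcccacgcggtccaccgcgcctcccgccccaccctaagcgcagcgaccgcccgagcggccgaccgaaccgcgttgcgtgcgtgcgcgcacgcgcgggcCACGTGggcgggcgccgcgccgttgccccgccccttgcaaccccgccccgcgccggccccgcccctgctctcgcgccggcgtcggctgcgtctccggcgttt
RANBP9 (chr6:13711836-13712085, minus strand): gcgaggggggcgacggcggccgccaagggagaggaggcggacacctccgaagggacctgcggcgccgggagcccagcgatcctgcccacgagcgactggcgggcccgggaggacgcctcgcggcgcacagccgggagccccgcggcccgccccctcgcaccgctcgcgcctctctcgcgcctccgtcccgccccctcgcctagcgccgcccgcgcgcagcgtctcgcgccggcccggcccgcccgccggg
The stretch shown for NUP50 overlaps the one before the start of NUP50-DT, which runs the other way on chr22:45163782-45164031, so both transcripts, with log2 changes of -0.89 (brightest probe set) and -0.83, start from opposite ends of a shared stretch of DNA.

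Other genes of nuclear transport, outside the names above, were also mostly lower in hypoxia. The list held 40 genes, such as factors of mRNA export, the Y complex subunit AHCTF1 and proteins of the inner nuclear membrane, and 33 were measured. Of these 22 fell (66.7%), 2 rose and 9 did not pass, with a median log2 change of -0.37, where 20.6% of all genes fell and 16.9% rose. Most of these genes were bright. Of the 31 with a mean intensity of at least 100, 21 fell and 2 rose, where 34.5% of all such genes fell and 26.7% rose. Of the 23 with a mean of at least 1000, 14 fell and 2 rose, where 36.4% of all such genes fell and 28.4% rose. ALYREF, which couples splicing to mRNA export, fell the furthest, to 1802 ± 45.9 in hypoxia, against 4882 ± 201 in normoxia (log2 change -1.43 with 95% limits of -1.58 and -1.28, limma adjusted p = 4.07e-05). DDX19A, a helicase of mRNA export that acts at the pore, was at 696 ± 63.05 in hypoxia and 1573 ± 79.6 in normoxia (log2 change -1.16). Further falls were those of the ATPase gene TOR1A (-0.88), the THO complex gene THOC6 (-0.83), TMEM33 (-0.79), the helicase gene DDX39A (-0.73), NXT2 (-0.69), a relative of NXT1, and PCID2 (a gene of the TREX-2 mRNA export complex, -0.63). The 2 that rose did so by little: NMD3, the adapter that brings the large ribosomal subunit to XPO1, by 0.20 (limma adjusted p = 0.034), and SUN1, a protein of the inner nuclear membrane, by 0.23 (limma adjusted p = 0.0341). Both calls depend on the processing, with 0 to 4 genes of the list rising over the alternatives. GLE1 (0.03), the partner of NUP42, and POM121C (0.05), a near copy of POM121, did not pass.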

How the data were processed

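RNA of MM1S cells was hybridised as biotin-labelled cRNA to 6 single-colour arrays, 3 hypoxia and 3 normoxia. The deposited table gives a linear intensity for each of 54613 probe sets, and the sources used here do not give how the authors scaled or normalised it. No scanner files were used. Groups came from the condition label of each sample.

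Of the probe sets, 41091 carried 1 symbol in the platform annotation, 1801 several and 11721 none here. Each gene was read from its brightest probe set of 1 symbol, by mean log2 over the 6 arrays. Values were taken as log2(intensity + 16) and tested, hypoxia minus normoxia, with limma 3.58.1 in R 4.3.3 (lmFit and eBayes, no filter, Benjamini-Hochberg adjustment over 19775 genes, threshold 0.05). The code was checked on simulated independent noise in which far fewer genes changed than passed here. That check gives no measure of how reliable the calls on these arrays are. The genes, the lists and the tests were chosen with earlier results of these data known. Values on every array are given for the 12 largest falls and 6 rises past the threshold with separate groups, and for 8 genes of set roles. They are also given for KPNA1, for its scatter within both groups. Other transport genes are named for the 8 largest falls and the rises. The genes of the remaining sentences are named by role. NUP98 was counted with the Y complex for the NUP96 part of its precursor. Alternatives covered the pseudocount, the scaling, a filter, the probe set rule, the variance model, a replicate block and leaving out arrays. Same-numbered arrays were not taken as pairs. Correlations of their deviations were 0.24, 0.0064 and 0.21, and those of differently numbered arrays -0.25 to 0.11. Precision is limited by the number of arrays. A planned comparison of importin alpha proteins was not run.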

Additional observations from a re-analysis of the deposited data

How the results depend on the processing

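Of the 46 pore and transport genes that passed, 34 kept their call in each of the 16 alternatives that tested them, 32 lower and 2 higher (RANBP9 and KPNA5). The count that fell was 35 to 43 and the count that rose 3 to 9 over all alternatives. Leaving out 1 array gave 35 to 40 that fell and 3 to 6 that rose, with the 3 without normoxia replicate 1. The median log2 change was -0.37 with quantile normalization, -0.53 for genes with a mean intensity of at least 100, -0.32 with the mean of all probe sets, and -0.43 to -0.37 with 1 array left out. With the mean of all probe sets 8 genes changed sign: KPNA1 (-0.31), NUP214 (-0.54), NUP50 (0.061), NUP58 (0.21), RANBP3 (-0.18), TPR (-0.14), and IPO5P1 (-0.14) and XPO7 (0.074), which passed in neither fit, and NUP54, XPO1 and NUP133 no longer passed. The probe sets of these genes differ in direction or size, and the cause of that was not tested. Of the other transport genes, 4 rose with a pseudocount of 64, with the filter at 100 or with an intensity trend, and 0 to 2 with 1 array left out (0 without hypoxia replicate 1, hypoxia replicate 2, normoxia replicate 0 or normoxia replicate 1, and 1 without normoxia replicate 2). The replicate number as a block (replicate block) gave 8 that rose and 41 that fell. That fit is given for completeness, since the numbers are not shown to pair the arrays. Depth in the sense of counts does not apply, and low signal limits what can be said of POM121 and of NUP210L, IPO11, RANBP3L and NUP133-DT, which lay below the array median on all 6 arrays.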
